A study of Canis lupus familiaris with 4 samples.

Results

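The circadian clock genes considered here are BHLHE40, BHLHE41, PER1, PER2, CRY1, CRY2, NR1D1, NR1D2, DBP and RORA. These 10 genes were chosen by their symbols in the annotation of the array, with earlier results of these data known. Of these, 7 had at least 1 probe set, which gave 19 of the 42924 probe sets and 7 of the 15115 named genes. NR1D1, DBP and RORA are not analysed here, because no probe set carried their symbol. A further limit came from signal. An intensity of 46.3, the median of all values, served as the floor, and PER2 and CRY2 stayed below it on every array. BHLHE40, BHLHE41, PER1 and CRY1 were above it on all 4 arrays and NR1D2 on 1 array, so 5 members could be tested.

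RNA came from MDCKII cells, a dog kidney epithelial cell line, and was measured on 4 Affymetrix arrays with 1 array per group. The groups are labelled WT normoxia, WT hypoxia, KD normoxia and KD hypoxia, where WT carries normal HIF1A and KD a knockdown of HIF1A, the oxygen-regulated subunit of the hypoxia-inducible transcription factor. All cells spent 24 h in normoxia and then 24 h in the labelled condition. The oxygen level, the means of the knockdown, whether the KD cells are a clone, and the time of day at which cells were harvested are not stated in the labels.

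The targeted gene did not follow the KD label. HIF1A read 3651 in WT normoxia, 3435 in KD normoxia, 675 in WT hypoxia and 625 in KD hypoxia, so it was low on both arrays labelled hypoxia and differed little by genotype label. Every direction given for a clock gene is therefore that of the labels, and groups are named as "labelled". Median intensities ranged from 45.6 to 47.1. Of the 7 epithelial markers measured, 6 were above the floor on all arrays, EPCAM among them at 9356 to 11319, while the epithelial cadherin CDH1 stayed below it at 17.8 to 41.2. All 4 fibroblast markers were below the floor everywhere. The leukocyte marker PTPRC reached it on 2 arrays, and the endothelial markers CDH5 (104 to 178) and KDR (47.3 to 66.1) were above it on all 4, and their part in the results was not tested.

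The clock of mammalian cells is a feedback loop of transcription. CLOCK and BMAL1 (ARNTL) bind E-box sequences and turn on the PER, CRY, NR1D and DBP genes. PER and CRY proteins then inhibit CLOCK and BMAL1, NR1D1 and NR1D2 repress ARNTL, and RORA activates it. BHLHE40 and BHLHE41 are repressors that bind the same E-boxes, and BHLHE40 is also known as a gene turned on by hypoxia-inducible factors. Many epithelial cells carry this loop, but cells of a culture drift out of phase unless something resets them, so 1 harvest shows a level and not a rhythm.

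Differences are given on the log2(intensity + 16) scale, which understates the change of dim genes. The 1 test these arrays allow is an additive limma model of labelled genotype and labelled oxygen, two-sided, with Benjamini-Hochberg adjustment over 9834 genes. It has 1 residual degree of freedom and borrows most of its variance from other genes (a prior of 8.1 degrees of freedom), so its p-values do not measure the spread between cultures. That 1 degree of freedom holds the difference between the oxygen responses of WT and KD cells, so the model counts this difference as noise and cannot test it. A gene is called where the adjusted p is under 0.05. Exchanging the arrays labelled KD normoxia and WT hypoxia would exchange the values of the genotype and oxygen terms, so the term under which a member is called rests on those labels.

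**Figure D1:**
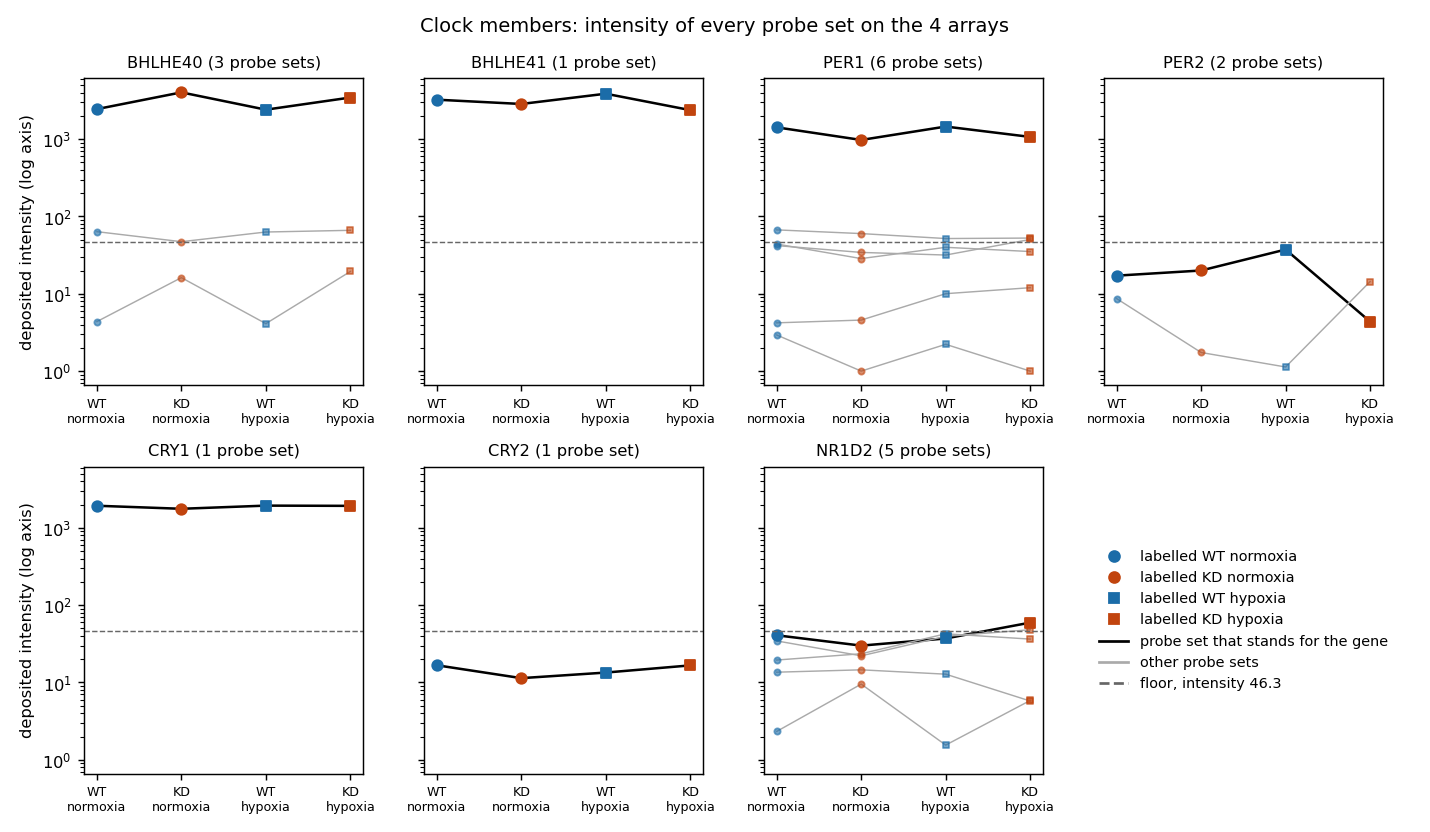
Deposited intensity (log axis) of all 19 probe sets of the 7 measured clock genes on the 4 arrays, with 1 panel per gene. Black lines join the values of the probe set that stands for the gene, grey lines those of its other probe sets, and the dashed line is the floor of 46.3. In the black lines BHLHE40 is higher on both arrays labelled KD and PER1 is lower on both, which the second probe set of each gene does not share. PER2 and CRY2 lie below the floor throughout.

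BHLHE40, an E-box repressor also known to answer to hypoxia, was the clock member that rose with the KD label. Its brightest probe set read 2449 in WT normoxia, 2407 in WT hypoxia, 4031 in KD normoxia and 3456 in KD hypoxia. Both arrays labelled KD were above both labelled WT, and the 2 arrays labelled WT were nearly alike. In normoxia labelled KD exceeded WT by 0.72 (1.64-fold), and in hypoxia by 0.52 (1.43-fold). Among the 9834 tested genes, 215 (2.19%) were at least as much higher in the normoxia pair and 381 (3.87%) in the hypoxia pair. In limma the genotype term was 0.62 (SE 0.07, adjusted p = 0.0038).

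Labelled oxygen moved BHLHE40 little. For WT cells hypoxia minus normoxia was -0.02 and for KD cells -0.22, and the limma oxygen term was -0.12 (SE 0.07, adjusted p = 0.348). The response in WT minus that in KD cells was 0.20, a value with no test.

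The other BHLHE40 probe sets did not give 1 picture. The second probe set, near the floor, read 63.6 in WT normoxia, 47.2 in KD normoxia, 63.0 in WT hypoxia and 66.2 in KD hypoxia. It was lowest on the array labelled KD normoxia, with KD minus WT at -0.33 in normoxia and 0.06 in hypoxia, so it does not share the pattern of the brightest. The third was higher on both arrays labelled KD, at 16.2 and 19.4 against 4.37 and 4.11, but all of these values are below the floor and their size is not measured. With the median of the 3 probe sets in place of the brightest, the genotype term of BHLHE40 was -0.14 (limma adjusted p = 0.721). The call rests on the brightest probe set alone.

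BHLHE41, the paralog of BHLHE40 and likewise an E-box repressor, fell with the KD label. Its only probe set read 3241.5 in WT normoxia, 3873 in WT hypoxia, 2853 in KD normoxia and 2376 in KD hypoxia. The array labelled WT hypoxia was highest and that labelled KD hypoxia lowest, and the KD and WT arrays did not overlap. Labelled KD minus WT was -0.70 in hypoxia, where 142 of 9834 genes (1.44%) were at least as much lower, and -0.18 in normoxia, where 2410 (24.5%) were. The limma genotype term was -0.44 (SE 0.11, adjusted p = 0.048). That call lies at the edge of the threshold, and its adjusted p was 0.0521 when the floor was raised to the 75th percentile.

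The oxygen label gave opposite values for BHLHE41 in the 2 genotypes. In WT cells labelled hypoxia minus normoxia came to 0.26 and in KD cells to -0.26, and the oxygen term of limma was 0.00 (SE 0.11, adjusted p = 0.99). The difference of these responses was 0.52, which 549 genes (5.58%) reached. Limma uses it as the residual, so it was not tested, and the oxygen term of 0.00 averages 2 unlike pairs.

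PER1, a component of the inhibitory complex of the clock and a gene that many stimuli switch on at once, also fell with the KD label. Its brightest probe set read 1422 in WT normoxia, 1456 in WT hypoxia, 977 in KD normoxia and 1070 in KD hypoxia. The KD and WT arrays did not overlap, and within each genotype the 2 oxygen conditions were close. In normoxia labelled KD minus WT came to -0.53 and in hypoxia to -0.44, or 1.45-fold and 1.36-fold lower. The genotype term was -0.49 (SE 0.08, limma adjusted p = 0.0148), while the oxygen term was 0.08 (SE 0.08, limma adjusted p = 0.609). The order of the 4 arrays was the reverse of that of BHLHE40, although in both genes the arrays labelled WT differed by no more than 0.03.

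PER1 had 5 further probe sets, all dim. The brightest of them, at 51.8 to 67.1, differed by -0.13 between the labelled KD and WT arrays in normoxia and by 0.02 in hypoxia. Another reached the floor on the array labelled KD hypoxia alone, at 50.4, with KD minus WT at -0.21 in normoxia and 0.48 in hypoxia. The remaining 3 stayed below it, with values from 1 to 44.0. Their KD minus WT in normoxia and hypoxia came to -0.43 and -0.13, 0.03 and 0.10, and -0.16 and -0.10, but the size of these differences is not measured. The second PER1 probe set, above the floor on all 4 arrays, thus did not share the difference of the brightest, on which the call rests.

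PER2, the partner of PER1, was not measurable. Its probe sets read 17.2, 20.01, 37.4 and 4.37, and 8.66, 1.74, 1.13 and 14.4, first for WT and then KD in normoxia, then for WT and KD in hypoxia. In the first the array labelled WT hypoxia was highest and in the second lowest, and no difference is read from either.

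CRY1, the cryptochrome that holds CLOCK and BMAL1 inactive, hardly varied. It read 1933 in WT normoxia, 1940 in WT hypoxia, 1766 in KD normoxia and 1926 in KD hypoxia, a range of 0.13 over the 4 arrays. Both arrays labelled KD were below both labelled WT, in hypoxia by only -0.01. Neither term was called, with -0.07 for genotype (SE 0.08, limma adjusted p = 0.633) and 0.07 for oxygen (SE 0.08, limma adjusted p = 0.662). CRY2, its paralog, read 16.7, 11.4, 13.4 and 16.6 in the order used for PER2, all below the floor.

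NR1D2, a heme-binding nuclear receptor that represses ARNTL, was at the edge of measurement. Its brightest probe set read 40.8 in WT normoxia, 30.0 in KD normoxia, 37.1 in WT hypoxia and 59.5 in KD hypoxia, so that only the last was above the floor. A second probe set gave the same highest and lowest array, with 34.5, 22.1, 39.6 and 48.1. Labelled hypoxia minus normoxia in KD cells was 0.71 in the first and 0.75 in the second, against -0.10 and 0.14 in WT cells, but the normoxia arrays are below the floor and the size of these differences is not measured. Neither limma term of NR1D2 was called (0.31 for oxygen, SE 0.27, adjusted p = 0.543, and 0.10 for genotype, SE 0.27, adjusted p = 0.863). The other 3 probe sets were below the floor on every array, from 1.55 to 42.7.

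**Figure D2:**
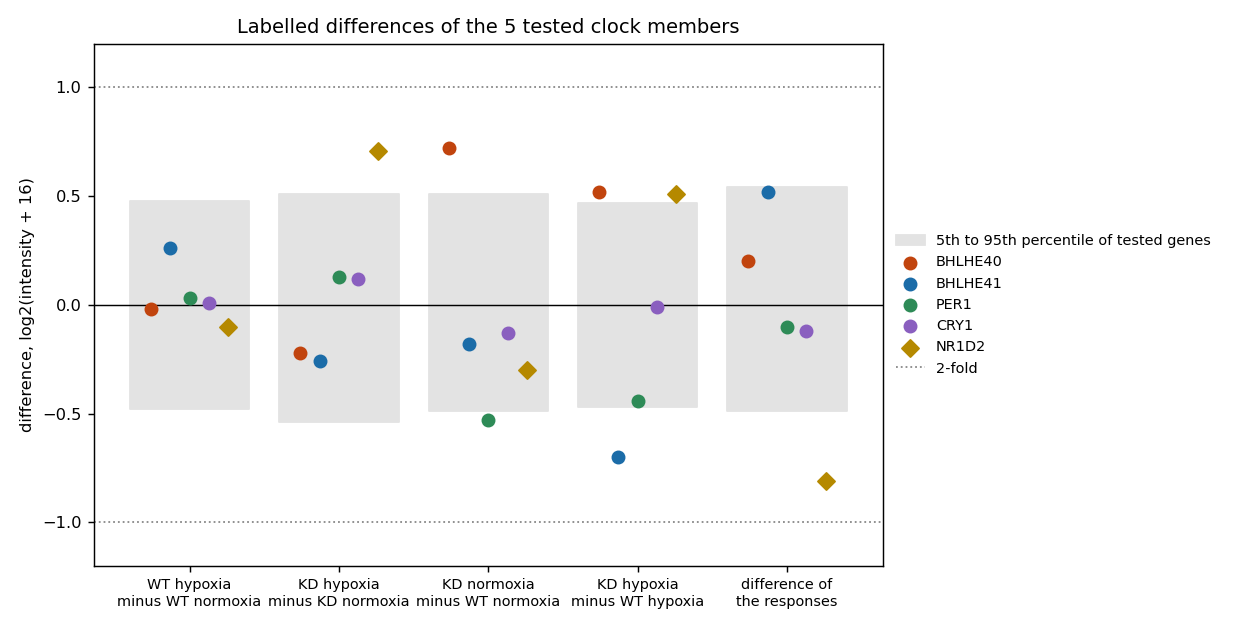
Differences on the log2(intensity + 16) scale of the 5 tested clock members in the 4 labelled pairs of arrays and in the difference of the responses (WT minus KD). Grey boxes span the 5th to 95th percentile of the 9834 tested genes and dotted lines mark 2-fold. No member reaches 2-fold. Outside the boxes lie BHLHE40 in KD minus WT (0.72 and 0.52), PER1 in KD minus WT in normoxia (-0.53), BHLHE41 in KD minus WT in hypoxia (-0.70), and NR1D2 in 3 of the 5 comparisons (0.71, 0.51 and -0.81). NR1D2 met the floor only through the array labelled KD hypoxia, which all 3 of these comparisons use, so its places outside the boxes support nothing.

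No tested member differed 2-fold in any labelled pair. The 5 members gave 0 such differences in WT hypoxia minus WT normoxia, where 1.17% of all tested genes did, and 0 in KD hypoxia minus KD normoxia (1.56% of all). They also gave 0 in KD minus WT in normoxia (1.18% of all) and in hypoxia (0.875% of all), and 0 in the difference of the responses (1.57% of all). Against shares this small, a count of 0 among 5 members lies near the background. At 1.5-fold, BHLHE40 passed in KD minus WT in normoxia, as 6.58% of all tested genes did, and BHLHE41 in KD minus WT in hypoxia (5.33% of all). NR1D2 passed in the labelled KD cells (7.45% of all) and in the difference of the responses (7.55% of all), but it met the floor only through the array labelled KD hypoxia, where it was high, so that its passes support nothing.

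In the limma genotype term 3 of the 5 members were called, BHLHE40 higher and BHLHE41 and PER1 lower, where 5.37% of all tested genes were called. In the oxygen term limma called 0 of 5 (also 0 at an unadjusted p under 0.05, and 0 without the intensity trend of the prior), where 8.89% of all were called. A count of 0 called among 5 members is near that share. On 4 of the 5 members the arrays labelled KD lay outside those labelled WT, a pattern that 41.3% of all tested genes had. On 0 of 5 did the arrays labelled hypoxia lie outside those labelled normoxia, which 42.1% of all had. The median genotype term of the 5 members was -0.07, against -0.01 over all tested genes, and members moved in both directions. That median and the counts out of 5 include NR1D2 (0.10), which met the floor only through the array labelled KD hypoxia, where it was high. The members above the floor on all 4 arrays had genotype terms of 0.62 (BHLHE40), -0.07 (CRY1), -0.44 (BHLHE41) and -0.49 (PER1).

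These calls depend on how limma sets its prior variance. Without the intensity trend of the prior the adjusted p was 0.232 for BHLHE40, 0.293 for BHLHE41 and 0.232 for PER1, and limma then called 0 genes in all for genotype (1733 had an unadjusted p under 0.05). Without the floor the adjusted p-values were 0.179, 0.288 and 0.194.

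**Figure D3:**
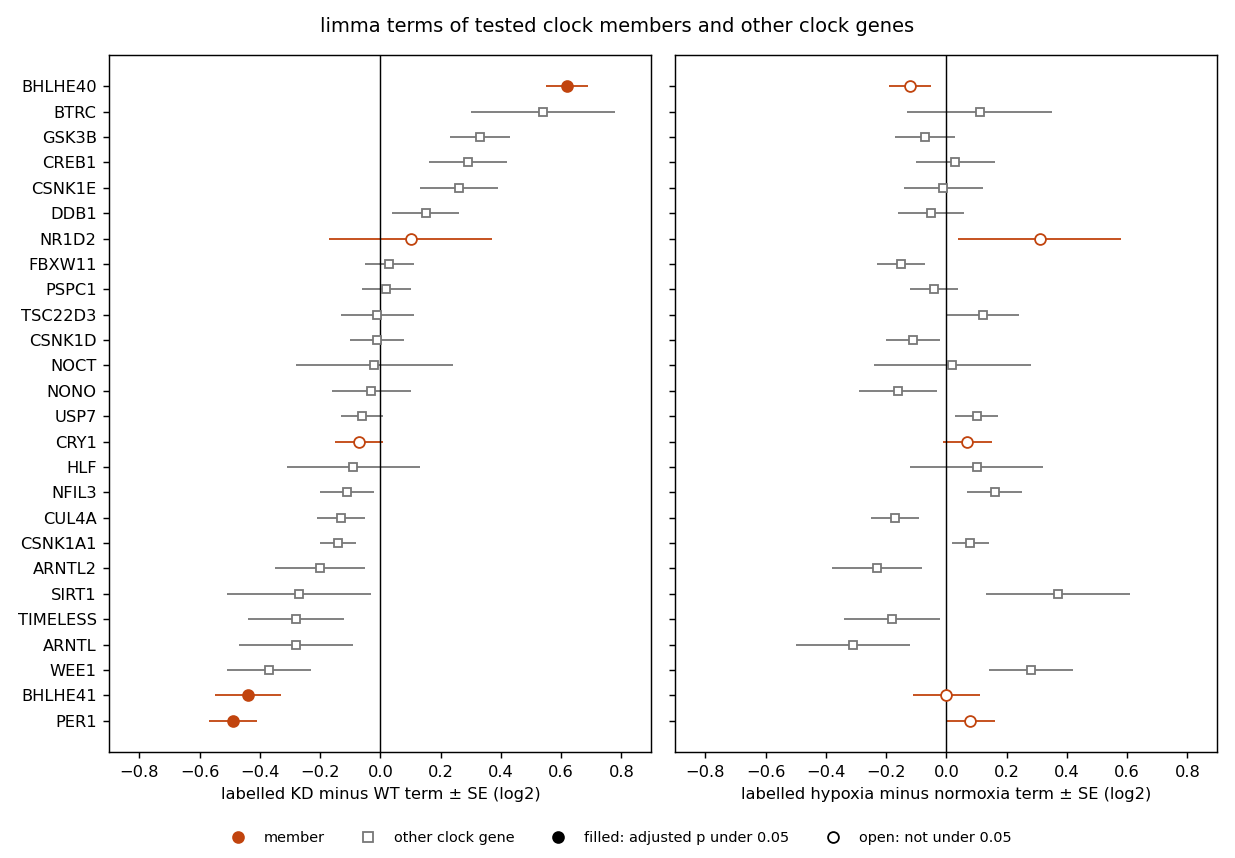
Limma genotype term (left, labelled KD minus WT) and oxygen term (right, labelled hypoxia minus normoxia) with standard errors, in log2 units, for the 5 tested members (red circles) and 21 other clock genes (grey squares). Filled symbols have an adjusted p under 0.05. BHLHE40 at 0.62, BHLHE41 at -0.44 and PER1 at -0.49 are the filled symbols, and the oxygen panel has none.

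No other clock gene was called in either term. Of the other clock genes, 30 had a probe set, 21 reached the floor on at least 1 array and 17 on all 4. Limma called 0 of the 21 in the genotype term, where 5.37% of all tested genes were called, and 0 were called without the trend. An unadjusted p under 0.05 was found for 4 of them, against 22.3% of all. BTRC is among these 4 (limma unadjusted p = 0.0484). It read 34.6 and 30.9 on the arrays labelled WT and 47.2 and 63.2 on those labelled KD. BTRC thus met the floor only through the arrays where it was high, so that its p-value supports nothing. In the oxygen term limma called 0, where 8.89% of all were called, and 0 without the trend. There 0 had an unadjusted p under 0.05 (2 without the trend), against 23.7% of all. With 21 genes, a count of 0 called is near the background in the genotype term and not far from it in the oxygen term, so no shortfall is read from either. The median genotype term of the 21 was -0.03, and their median oxygen term was -0.01. By genotype 7 were higher and 14 lower, and by oxygen 10 were higher and 11 lower.

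The activators that drive the loop were dim. CLOCK read 33.2, 13.5, 43.0 and 45.1 in the order used for PER2, and NPAS2, its paralog, 4.25 to 20.5, all below the floor. ARNTL, which encodes BMAL1, read 78.6, 77.3, 75.4 and 47.1 in that order, and its paralog ARNTL2 read 126, 121, 119 and 89.6. Both were lowest on the array labelled KD hypoxia, as BHLHE41 was. Their genotype terms were -0.28 (limma adjusted p = 0.441) and -0.20 (limma adjusted p = 0.454). The other ARNTL probe sets did not share the pattern of the one used. The brighter of them read 47.2, 65.5, 37.65 and 35.2 in the same order, so it was highest on the array labelled KD normoxia. Its hypoxia pair, below the floor, differed by only -0.07, against -0.53 in the probe set used. The dimmer was below the floor throughout and was highest on the array labelled KD hypoxia, at 18.3.

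NFIL3, the repressor that competes with DBP for D-box sites, was well measured, at 2479 in WT normoxia, 2005 in KD normoxia, 2423 in WT hypoxia and 2553 in KD hypoxia. The array labelled KD normoxia was lowest, with KD minus WT at -0.30 in normoxia and 0.08 in hypoxia. A second probe set gave -0.30 and 0.20. The remaining NFIL3 probe set, also above the floor on all 4 arrays, was instead lowest on the array labelled WT hypoxia, at 135.6. Its genotype difference was -0.01 for the normoxia pair and 0.32 for the hypoxia pair. Neither term of NFIL3 was called (limma adjusted p = 0.512 for genotype and 0.357 for oxygen). HLF, a relative of DBP, had a range of 0.18 around the floor, and TEF was below it.

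Among the kinases and ligases that set the life of PER and CRY proteins, GSK3B came nearest to a call, with a genotype term of 0.33 (SE 0.10, limma adjusted p = 0.0907). It read 462 and 414 on the arrays labelled WT normoxia and WT hypoxia and 552 and 554 on the KD arrays, which did not overlap. The casein kinases, which mark PER proteins for breakdown, moved less: CSNK1D had a genotype term of -0.01, CSNK1E of 0.26 and CSNK1A1 of -0.14, with limma adjusted p-values of 0.96, 0.282 and 0.179. The ligase gene FBXW11 had a genotype term of 0.03 (limma adjusted p = 0.849), with KD minus WT at 0.07 in normoxia and 0 in hypoxia. Its other probe sets above the floor on all 4 arrays did not share this. They gave 0.13 in normoxia and 0.49 in hypoxia, and 0.22 and 0.94. WEE1, a cell cycle kinase under clock control, had a genotype term of -0.37 (limma adjusted p = 0.156).

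BHLHE40 and BHLHE41 were set beside 15 genes known to respond to hypoxia-inducible factors, a list written with earlier values of these arrays known. BNIP3 and EGLN3 passed the floor only on the array labelled KD normoxia, where they were high, and are left out of the counts, a step taken after their values were seen. In labelled KD minus WT, 12 of the other 13 were higher in normoxia (median 0.69) and 10 in hypoxia (median 0.27). Over all tested genes the medians were -0.01, with 4755 higher and 5078 lower in normoxia, and 4714 higher and 5120 lower in hypoxia. In the genotype term limma called 7 of the 13 higher and 0 lower, where 5.37% of all tested genes were called. BHLHE40 was higher in both pairs too, by 0.72 and 0.52. Its paralog BHLHE41 went the other way in both, at -0.18 in normoxia and -0.70 in hypoxia. The BHLHE40 difference was smaller in normoxia than that of ADM (2.96), a vasodilator peptide, or of PDK1 (2.83), which restrains the entry of pyruvate into mitochondria. NDRG1 lay nearest to BHLHE40 in normoxia, at 0.69, and was at 0.96 in hypoxia (genotype term, limma adjusted p = 0.0258). KDM3A, a histone demethylase, was at 0.58 in normoxia and 0.20 in hypoxia and was not called (limma adjusted p = 0.0692). Labelled hypoxia minus normoxia, -0.02 in WT and -0.22 in KD cells for BHLHE40, had medians of -0.01 and -0.33 over the 13. In WT cells 5 of them were higher and 8 lower, and in KD cells 1 was higher and 12 lower. Over all tested genes 5151 were higher and 4683 lower in WT cells (median 0.01), and 5159 higher and 4672 lower in KD cells (median 0.02). In the oxygen term limma called 0 of the 13 higher and 1 lower, where 8.89% of all tested genes were called. The response in WT minus that in KD cells, 0.20 for BHLHE40, ran from -0.27 (NDRG1) to 1.87 (ADM) over the 13. Its median over the 13 was 0.44, against -0.01 over all tested genes, and LDHA at 0.19 and SLC2A1 at 0.30 lay near BHLHE40. VEGFA and CA9 differed by 0.06 and -0.02 in normoxia. The normoxia and hypoxia pairs of KD minus WT share no array, but the differences between genes were not tested.

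**Figure D4:**
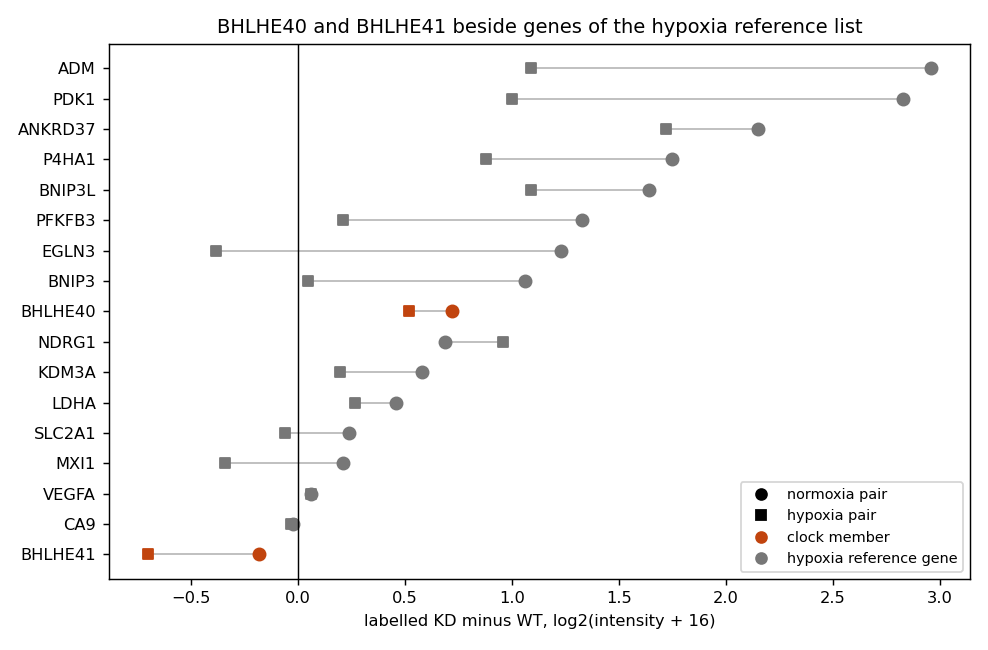
Labelled KD minus WT on the log2(intensity + 16) scale in the normoxia pair (circles) and the hypoxia pair (squares) for BHLHE40 and BHLHE41 (red) and the 15 hypoxia reference genes (grey), each from 1 array per group. BHLHE40, at 0.72 and 0.52, lies among these genes, and BHLHE41, at -0.18 and -0.70, is the only gene below 0 by more than 0.1 in both pairs. BNIP3 and EGLN3 were above the floor on 1 array only.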

How the data were processed

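Biotinylated cRNA from 100 ng of total RNA was hybridised to Affymetrix arrays, per the labels' protocols. The authors deposited 1 linear intensity per probe set. The software, background correction and scaling behind it are not stated, and detection calls were not used. The number of arrays limits the precision.

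Intensities became log2(intensity + 16). Of 42924 probe sets, 29254 had 1 symbol, 439 several and 13231 none. A gene took its probe set with the highest mean (15115 genes), and 9834 genes that on some array reached a floor of 5.96, the median over all arrays, were tested with limma 3.58.1 in R 4.3.3 (additive model, eBayes with an intensity trend). The fit was also run on simulated data with equal noise for every gene, which cannot check the trend. All 7 member gene IDs were found in the RefSeq gene table. No sequences or coordinates are given.

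Members and lists were chosen with earlier results of these data known. Named genes were the members, HIF1A, genes of the other clock and hypoxia lists, and the 5 genes nearest in profile to any member with a range of at least 1. Alternatives were 3 scalings, 2 pseudocounts, 2 floors, the median over probe sets, a 1.5-fold threshold, no trend and a fit over probe sets.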

Additional observations from a re-analysis of the deposited data

Results flagged for a closer look

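BHLHE41 and NR1D2 moved opposite ways in arrays of different labels, each from 1 array per group, and neither difference was tested. The response of BHLHE41 to labelled hypoxia came to 0.26 for WT and -0.26 for KD cells, a difference of 0.52. That of NR1D2 came to -0.10 for WT and 0.71 for KD cells, a difference of -0.81. For NR1D2 labelled KD minus WT came to -0.30 in normoxia and to 0.51 in hypoxia, with the same difference of -0.81. NR1D2 was above the floor on the array labelled KD hypoxia alone, so the size of its values is not measured.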

How the results depend on the processing

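With 1 array per group no array could be left out of a pair. The count of members at least 2-fold different, 0 in each comparison, became 1 in KD hypoxia minus WT hypoxia and 1 in the difference of the responses with no floor, where PER2 enters below the floor, and 1 in the difference of the responses with a pseudocount of 1 (NR1D2, -1.10). At 1.5-fold it was 1 in each comparison except WT hypoxia minus WT normoxia. The 3 genotype calls became 1 with the median over probe sets, where BHLHE40 reversed to -0.14 and PER1 fell below the floor and was not tested, and 0 with no floor or no trend. They stayed 3 under the 3 scalings, both pseudocounts and the fit over probe sets, and were 2 with a floor at the 75th percentile. Over the alternatives in which each was tested, the limma adjusted p ran from 6.02e-14 to 0.721 for BHLHE40, from 3.99e-07 to 0.293 for BHLHE41 and from 1.26e-05 to 0.232 for PER1. No alternative gave a member an oxygen call. Over all genes, limma called 528 for genotype, between 0 and 1311 under the alternatives fitted over genes, and 2153 probe sets in the fit over probe sets.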

Other observations

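No clock member above the floor on all 4 arrays had a range of 1, so the rule for genes of like profile named none. It was extended to those 4 members after their values were seen, over 8283 genes above the floor on all 4 arrays. Likeness is the root mean square distance between log2 profiles, each centred on its mean. Nearest to BHLHE40 were GGPS1 (0.0133), PSMF1 (0.0223), MYOZ1 (0.0297), RLF (0.0312) and SNAPC1 (0.0316). Nearest to BHLHE41 were ARHGAP4 (0.0238), SLC37A2 (0.0493), GPATCH2 (0.0496), ADAL (0.0501) and LOC608238 (0.0549). Nearest to PER1 were GNPTG (0.0137), SRSF2 (0.018), MTRR (0.0212), ENTPD3 (0.0261) and USP1 (0.029). Nearest to CRY1, whose own range was 0.13, were LMBRD1 (0.00628), DEPDC5 (0.00825), DBR1 (0.00996), SNRPB (0.0119) and MRPL23 (0.0125). A profile over 4 arrays holds little information, and all of these values come from 1 array per group.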
